A study of Mus musculus with 8 samples.

Results

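Base excision, nucleotide excision and mismatch repair remove damaged or mispaired bases from DNA, and translesion polymerases copy past lesions that are still in place. The 41 genes described here are a list from these pathways, chosen with earlier results of these data known. Ensembl identifiers were matched to gene symbols, and all 41 genes were found among the 55573 genes in each deposited file. They comprise 10 glycosylases and 8 further base excision and strand break genes, 12 nucleotide excision genes, 5 mismatch genes, 5 translesion genes and 1 direct reversal gene, Mgmt. Of these, 40 passed the low-count filter and were tested, and Neil2 did not.

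The RNA came from cultured colon fibroblasts of C57BL6/J mice, grown on plastic in Advanced DMEM F12 with 10% FBS. Every culture, irradiated or not, had received medium conditioned by APTKA, which the labels do not expand, so no library shows these cells without that medium. One group of 4 libraries was not irradiated, and the other group of 4 received 3 fractions of 2 Gy, with RNA taken 72 h after the first dose. The labels name neither the animals nor the number of cultures behind the replicates I to IV, and what the tests below compare is therefore the variation among these 8 libraries, part or all of which may be technical.

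Ionising radiation leaves oxidised bases, abasic sites and single-strand breaks besides double-strand breaks, and base excision repair handles many of these apart from the double-strand breaks. A glycosylase cuts out the damaged base, an endonuclease opens the backbone at the abasic site, a polymerase fills the gap and a ligase seals it. Nucleotide excision repair removes bulky, helix-distorting lesions as a short piece of the strand, and mismatch repair corrects errors of replication. Some nucleotide excision genes, such as Xpc and Ddb2, are known p53 targets in human cells.

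The libraries held 28731227 to 37157216 counts. The summed level of 11 fibroblast markers was 16243 to 19075 CPM (the count of a gene relative to the total of its library, scaled with TMM factors) in non-irradiated and 14797 to 16118 CPM in irradiated libraries. The summed level of 10 epithelial markers was 0.839 to 2.1 and 1.18 to 1.71 CPM, that of 10 immune markers 12.4 to 15.3 and 14.3 to 15.5 CPM, most of it from Cd14 (means of 9.15 and 9.58 CPM) and Cd68 (3.42 and 3.76 CPM) and with Ptprc and Cd3e near 0, and that of 7 endothelial markers 11.6 to 13.2 and 11.1 to 13.3 CPM. The 8 smooth muscle and glial markers summed to 363 to 393 and 308 to 362 CPM. Irradiated libraries I and II stood apart, with 15271 and 15425 CPM of mitochondrial rRNA against 4203 to 5906 CPM in the other 6, so the calls among the repair genes are also given without them. Genes of dividing cells were lower after irradiation: 11 of 12 such genes passed the test, Mcm7 being the exception, and their summed level was 707 to 796 CPM in non-irradiated and 528 to 554 CPM in irradiated libraries.

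Of the repair genes, 5 differed between irradiated and non-irradiated fibroblasts, by at most 1.35-fold, and 35 did not pass the test. Higher after irradiation were Ercc5, which makes one of the incisions of nucleotide excision repair, Msh3, a mismatch recognition subunit, and Rev1, the scaffold of translesion synthesis. Lower were Neil3, a glycosylase of dividing cells, and Lig3, the ligase that works with Xrcc1. By edgeR's quasi-likelihood test with Benjamini-Hochberg adjustment over all 15259 genes tested, 3 of the 40 members (7.5%) were higher and 2 (5%) were lower at an adjusted p under 0.05. Over all genes tested, 2.59% were called higher and 4.15% lower, 6.74% in either direction, so the share of members called lower was near the background and rests, like the share called higher, on a few genes. The median log2 fold change of the members, irradiated over non-irradiated, was 0.035 against 0.00088 for all genes tested, and 24 of 40 members (60%) lay above 0 against 50.3% of all genes. The groups did not overlap in CPM for 10 of the 40 members (25%), against 14.2% of all genes tested. Of these 10, 5 were not called: Mutyh, Smug1, Parp1, Mlh3 and Polk. In Smug1 the gap vanished on rounding, with 28.2 CPM in both non-irradiated II and irradiated II. Its log2 fold change was 0.058 (edgeR adjusted p = 0.53).

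**Figure D1:**
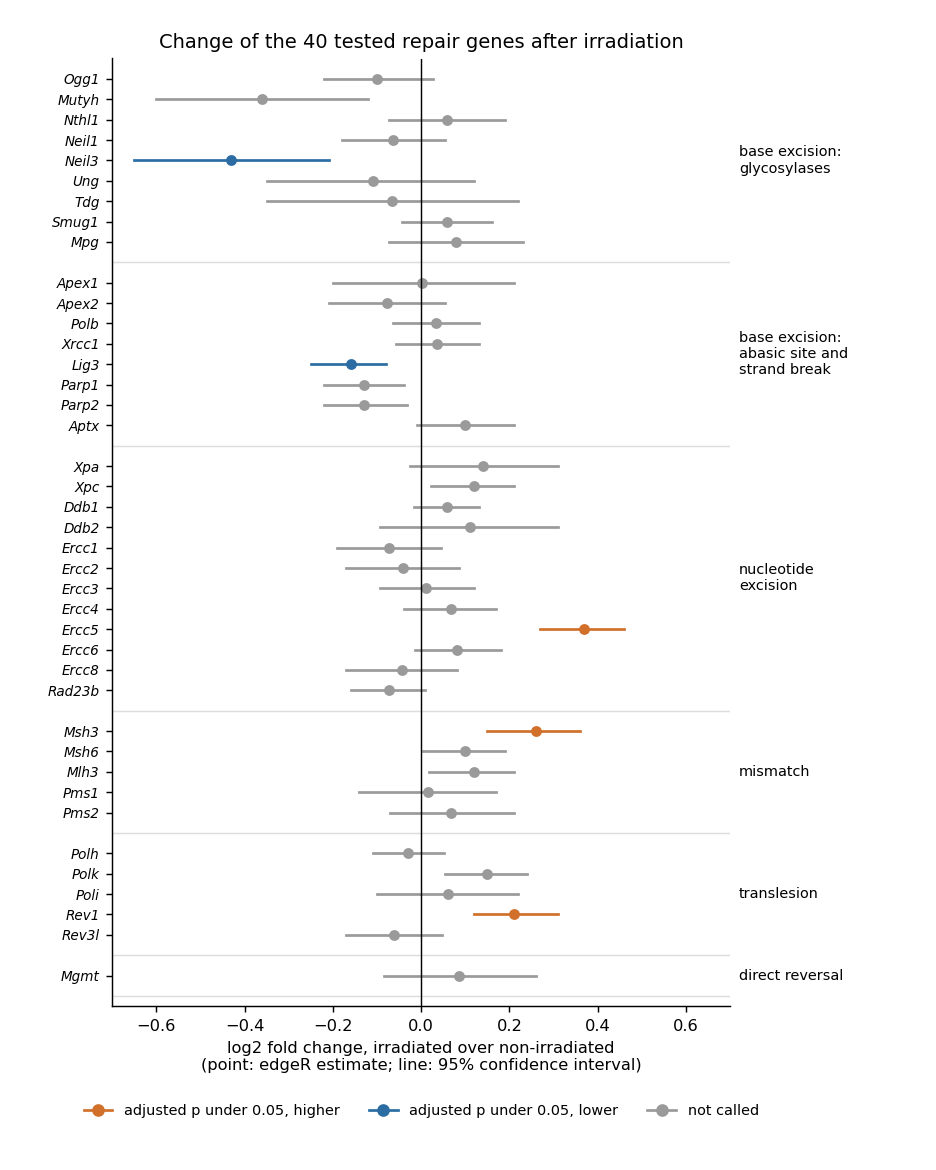
Log2 fold change of each tested member, irradiated over non-irradiated, on the horizontal axis, with 95% confidence intervals as lines and members grouped by pathway. Ercc5 at 0.37, Msh3 at 0.26 and Rev1 at 0.21 were called higher, Neil3 at -0.43 and Lig3 at -0.16 lower, and the 35 grey members were not called.

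The stretches before the start sites of the largest riser and the largest faller, and the part of the Msh3 promoter that held a motif, are printed here from RefSeq (GRCm38.p6), 5′ to 3′ on the strand of the gene. The Ercc5 and Neil3 sequences are the 250 bases before the start, at chr1:44147494-44147743 on the plus strand and chr8:53639066-53639315 on the minus strand. The Msh3 stretch is 30 bases at chr13:92355187-92355216 on the minus strand. Capitals mark matches to the motifs searched.
Ercc5: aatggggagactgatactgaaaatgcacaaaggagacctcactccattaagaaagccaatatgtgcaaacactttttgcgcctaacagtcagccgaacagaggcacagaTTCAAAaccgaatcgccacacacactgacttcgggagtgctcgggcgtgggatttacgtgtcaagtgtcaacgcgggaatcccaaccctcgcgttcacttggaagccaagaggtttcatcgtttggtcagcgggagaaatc
Neil3: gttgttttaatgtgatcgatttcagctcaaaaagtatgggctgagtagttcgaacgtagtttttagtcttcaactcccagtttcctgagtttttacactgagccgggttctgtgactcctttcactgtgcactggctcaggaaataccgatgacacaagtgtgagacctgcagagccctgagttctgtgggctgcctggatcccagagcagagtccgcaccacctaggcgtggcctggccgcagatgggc
Msh3: ttgccgtcaagTTTGGCGCGAAAtcgcagc

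Promoter windows of 300 bases, 250 before to 50 after the start, were found for 33 of the 41 members, and both strands were searched. The E2F letters TTTGGCGC, TTTCCCGC, TTTGCCGC and TTTCGCGC occurred in 2.26% of all 32851 windows, and among the members in those of Msh3, Msh6 and Nthl1. In Msh3 a match on the printed strand overlapped one on the other strand, from -202 to -191 relative to the start. The cell cycle homology region TTTGAA occurred in 17.9% of all windows and, among the members, in that of Ercc5, on the other strand. The p53 response element, taken as a pair of exact half-sites up to 13 bases apart, was in 0.0731% of all windows and in none of the members'. A motif this rare is expected in none of 33 members, so its absence says nothing about p53 sites in them.

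Ercc5, known in people as XPG, cuts the damaged strand on one side of the lesion while the Ercc1 and Ercc4 nuclease cuts on the other. Its gene (ENSMUSG00000026048) lies at chr1:44147744-44181260 of mm10 on the plus strand. In non-irradiated libraries I to IV it stood at 165, 174, 165 and 178 CPM, and in irradiated libraries I to IV at 223, 204, 229 and 225 CPM. Every irradiated library was above every non-irradiated one, with irradiated II the lowest of its group. The mean rose from 171 ± 6.55 to 220.2 ± 11.1 CPM (SD, n = 4). This was a 1.29-fold difference (0.37 on the log2 scale, SE 0.043, edgeR adjusted p = 0.000164). The call held in each of the 8 fits that left out 1 library, with adjusted p up to 0.00108, and without both irradiated I and II (log2 fold change 0.41, adjusted p = 0.000837).

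**Figure D2:**
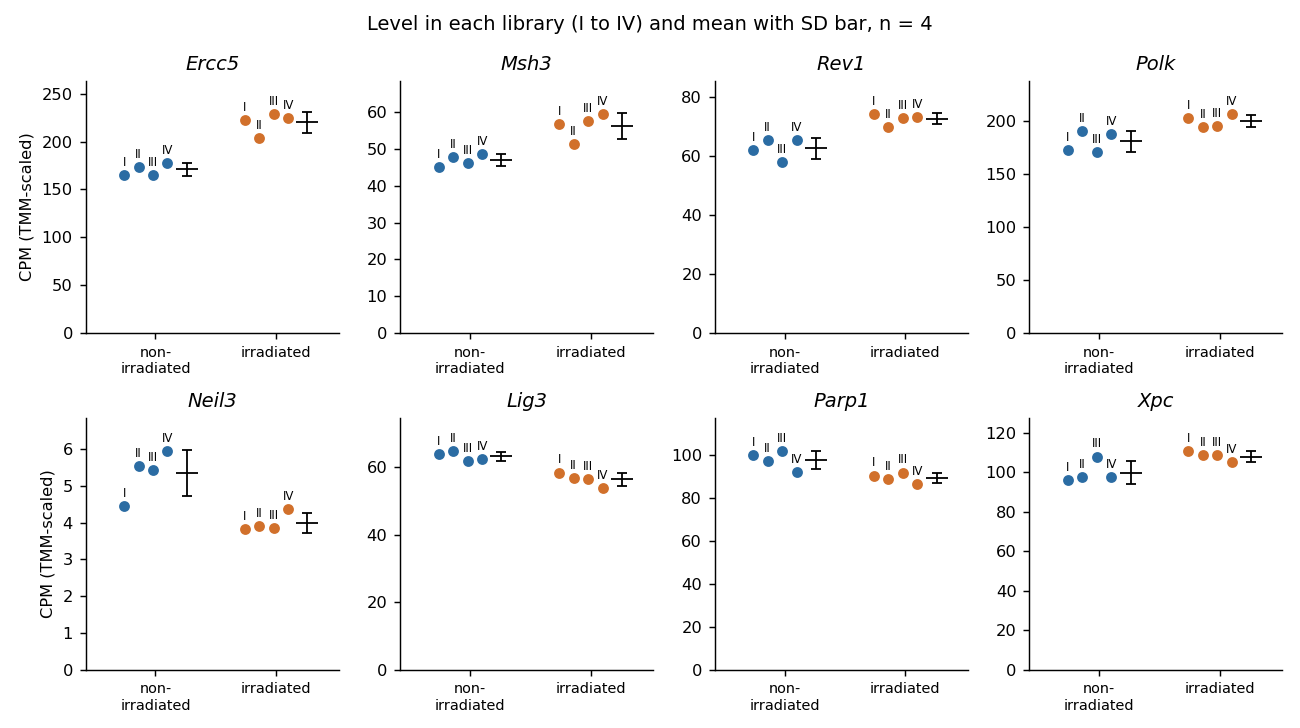
CPM of 8 members in each library, with Roman numerals for the replicates and the mean and SD of each group as a bar (n = 4), on axes that start at 0. The groups are separate for Ercc5, Msh3, Rev1, Polk, Neil3, Lig3 and Parp1, and overlap for Xpc, where non-irradiated III at 108 CPM lies among the irradiated libraries.

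The other 11 nucleotide excision genes were not called. Xpc, which finds distorted helix, stood at 96.3, 97.7, 108 and 97.4 CPM in non-irradiated and at 111, 109, 109 and 105 CPM in irradiated I to IV. The groups overlapped through non-irradiated III. Its means were 99.9 ± 5.6 and 108 ± 2.61 CPM (log2 fold change 0.12, edgeR adjusted p = 0.139), and among the alternatives (0.0313 to 0.47) it passed only without non-irradiated III (0.0313), the library at 108 CPM against 96.3 to 97.7 CPM in the other 3. Its partner Rad23b was at 591 ± 20.3 and 561 ± 20 CPM (-0.073 on the log2 scale, adjusted p = 0.292). The subunits of the UV damage sensor differed widely in level: Ddb1, which also serves a ubiquitin ligase, was at 1358 ± 28.1 and 1414 ± 35.3 CPM, and Ddb2, the subunit that binds the lesion, at 5.48 ± 0.453 and 5.91 ± 0.533 CPM. Neither passed (log2 fold changes 0.059 and 0.11, adjusted p = 0.363 and 0.552).

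The helicases of TFIIH, Ercc2 and Ercc3, which open the helix around the lesion, had log2 fold changes of -0.042 and 0.012. Xpa, which checks the opened site, stood at 13.2 ± 1.14 and 14.6 ± 1.13 CPM (0.14 on the log2 scale, adjusted p = 0.322). Ercc1 and Ercc4, the partners that make the incision opposite to that of Ercc5, had log2 fold changes of -0.073 and 0.067. The transcription-coupled genes Ercc6 and Ercc8, which act where RNA polymerase stalls, had 0.081 and -0.044. Of the 12 genes, 8 lay above 0, with a median of 0.063.

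Msh3 is the subunit that lets mismatch repair recognise insertion and deletion loops. Its gene (ENSMUSG00000014850) lies at chr13:92211872-92355003 on the minus strand. It stood at 45.1, 47.9, 46.2 and 48.6 CPM in non-irradiated I to IV and at 56.7, 51.2, 57.5 and 59.5 CPM in irradiated I to IV. The groups did not overlap, and irradiated II was again the lowest irradiated library. The mean rose from 47 ± 1.6 to 56.2 ± 3.54 CPM (SD, n = 4), 1.2-fold (log2 fold change 0.26, SE 0.049, edgeR adjusted p = 0.00558). The call held in each fit without 1 library (adjusted p up to 0.0242) and without both irradiated I and II (0.00781).

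The remaining mismatch genes were not called, although each had a log2 fold change above 0. Msh6, the subunit for recognising single mispairs, was at 131 ± 2.85 and 141 ± 7.94 CPM (log2 fold change 0.10, edgeR adjusted p = 0.215). Mlh3, a MutL homologue, was at 22.6 ± 0.346 and 24.5 ± 0.616 CPM with no overlap of the groups (0.12, 0.158). Pms2, which nicks the strand to be repaired, and Pms1 had 0.067 and 0.015. The median of the 5 genes was 0.10, and their summed level was 220.3 to 234 CPM in non-irradiated and 236 to 259.8 CPM in irradiated libraries. This sum includes the called gene Msh3, which rose from 47 ± 1.6 to 56.2 ± 3.54 CPM, and its largest part is Msh6. The separation of the sums therefore does not show a rise of the uncalled genes.

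Rev1 inserts cytosine opposite damaged bases and holds the other bypass polymerases at the stalled fork. Its gene (ENSMUSG00000026082) lies at chr1:38052786-38129801 on the minus strand. It stood at 62, 65.3, 57.9 and 65.3 CPM in non-irradiated I to IV and at 74.3, 70, 72.8 and 73.3 CPM in irradiated I to IV. All irradiated libraries were above all non-irradiated ones, and the mean rose from 62.6 ± 3.51 to 72.6 ± 1.86 CPM (SD, n = 4; log2 fold change 0.21, SE 0.045, edgeR adjusted p = 0.0122). The call held in each fit without 1 library (adjusted p up to 0.0422) but not without both irradiated I and II (log2 fold change 0.22, adjusted p = 0.0669). Eif5b, a translation factor gene on the opposite strand that shares 26.6% of the exonic bases of Rev1, was at 140.1 ± 17.4 and 156 ± 13.4 CPM (0.15 on the log2 scale, adjusted p = 0.313), and the strand setting of the counting is not given in the sources used here.

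Polk, a polymerase that bypasses bulky adducts, came closest to a call among the other bypass genes. It stood at 173, 191, 171 and 188 CPM in non-irradiated and at 203, 195, 196 and 207 CPM in irradiated I to IV. The groups did not overlap, but the gap was narrow, from 191 to 195 CPM. The log2 fold change was 0.15 (SE 0.043, edgeR adjusted p = 0.0574), and Polk passed in 5 alternatives, for example with DESeq2 (0.0226) or when non-irradiated II was left out (0.031), over a range of 0.0179 to 0.183. Polh, which copies past UV lesions, was at 87.1 ± 2.7 and 85.3 ± 1.32 CPM (log2 fold change -0.03), Poli at 12.8 ± 0.788 and 13.3 ± 1.08 CPM (0.061), and Rev3l, the catalytic subunit of polymerase zeta, at 109 ± 6.13 and 105 ± 5.69 CPM (-0.062). None of these 3 passed (adjusted p = 0.712, 0.695 and 0.531).

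Neil3 had the most negative log2 fold change of the tested members. It is a glycosylase for oxidised bases in single-stranded DNA, known to be made mainly by dividing cells. Its gene (ENSMUSG00000039396) lies at chr8:53586867-53639065 on the minus strand. It stood at 4.46, 5.53, 5.44 and 5.96 CPM in non-irradiated and at 3.82, 3.9, 3.85 and 4.38 CPM in irradiated I to IV, from 128 to 201 counts per library. The highest irradiated library, IV, lay just under the lowest non-irradiated one, I. The mean fell from 5.35 ± 0.63 to 3.99 ± 0.265 CPM (SD, n = 4; log2 fold change -0.43, SE 0.10, edgeR adjusted p = 0.0238). The call was lost without non-irradiated IV (0.0699) and without irradiated I (0.0683), II (0.0604) or III (0.0675), and without both irradiated I and II (log2 fold change -0.38, adjusted p = 0.165). The genes of dividing cells fell in the same libraries, with a median log2 fold change of -0.57, and Mki67, the proliferation marker, fell from 105 ± 14.8 to 58.2 ± 2.49 CPM (edgeR adjusted p = 3.93e-05, and 0.000845 without both irradiated I and II). Their part in the lower level of Neil3 was not tested, and in bulk RNA fewer cells of a kind and less RNA per cell cannot be told apart.

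The other glycosylases were not called. Mutyh, which removes adenine paired with oxidised guanine, had the second largest estimate, with 3.38, 2.89, 3.49 and 2.96 CPM in non-irradiated and 2.43, 2.66, 2.29 and 2.57 CPM in irradiated I to IV. The groups were separate but the level was low, 78 to 129 counts per library, and the log2 fold change of -0.36 (95% confidence interval -0.60 to -0.12) had an edgeR adjusted p = 0.0771. Ogg1, which removes oxidised guanine itself, was at 15.6 ± 0.438 and 14.6 ± 0.661 CPM (-0.10 on the log2 scale, adjusted p = 0.36). Nthl1 and Neil1, which remove oxidised pyrimidines, had log2 fold changes of 0.058 and -0.063. The uracil glycosylases Ung and Smug1 had -0.11 and 0.058, Tdg, which removes thymine mispaired with guanine, -0.066, and Mpg, which removes alkylated purines, 0.078, with adjusted p from 0.53 to 0.827 for these 4 genes. Neil2 held 5 to 8 counts per library, at 0.181 ± 0.0415 and 0.177 ± 0.0385 CPM, where 3 counts correspond to 0.0812 to 0.105 CPM. It was not tested, and this depth is too low to show a small change.

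Lig3 seals the repaired strand in a complex with the scaffold Xrcc1. Its gene (ENSMUSG00000020697) lies at chr11:82781108-82804274 on the plus strand. It stood at 63.9, 65, 61.9 and 62.5 CPM in non-irradiated and at 58.5, 56.9, 56.6 and 54 CPM in irradiated I to IV. The groups did not overlap, and the mean fell from 63.3 ± 1.4 to 56.5 ± 1.86 CPM (SD, n = 4; log2 fold change -0.16, SE 0.039, edgeR adjusted p = 0.0231). The call was lost without non-irradiated II (0.0538), without irradiated II (0.0604), III (0.0601) or IV (0.0904), without both irradiated I and II (log2 fold change -0.19, adjusted p = 0.0781) and without the low-count filter (0.0529). Rffl, a ubiquitin ligase gene on the opposite strand whose exons cover 25.1% of those of Lig3, moved the other way, from 41.6 ± 2.23 to 46.4 ± 0.938 CPM, without passing (log2 fold change 0.16, adjusted p = 0.0522). Xrcc1 itself was at 61.2 ± 2.21 and 62.7 ± 2.59 CPM (0.035 on the log2 scale, adjusted p = 0.705).

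Parp1 and Parp2, which mark strand breaks with poly(ADP-ribose) and recruit Xrcc1, had the same estimate of -0.13. Parp1 stood at 99.8, 97, 102 and 92 CPM in non-irradiated and at 90.4, 88.6, 91.8 and 86.6 CPM in irradiated I to IV. The groups were barely separate, and the edgeR adjusted p was 0.0879. DESeq2 gave an adjusted p = 0.0486, and the alternatives ranged from 0.0462 to 0.279. Parp2 was at 53.6 ± 1.82 and 49.1 ± 2.39 CPM with overlapping groups (adjusted p = 0.11).

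The enzymes of the middle steps were not called. Apex1, the main abasic site endonuclease, was at 17.1 ± 1.6 and 17.1 ± 2.43 CPM (log2 fold change 0.002, 95% confidence interval -0.20 to 0.21), and Pip4p1 on the opposite strand shares 61.7% of its exonic bases. Apex2 had a log2 fold change of -0.078. Polb, which fills the gap, was at 51 ± 2.89 and 52.2 ± 1.41 CPM (log2 fold change 0.034, interval -0.063 to 0.13), and Aptx, which clears failed ligation products, was at 35 ± 2.08 and 37.6 ± 1.77 CPM (0.10, edgeR adjusted p = 0.277). Over the 17 tested base excision genes, 2 were lower and 0 higher, with a median of -0.066, where 4.15% of all genes tested were lower and 2.59% higher. These counts are too small to set the base excision genes apart from that background. Mgmt, which reverses guanine alkylation without excision, was at 7.47 ± 0.395 and 7.94 ± 0.586 CPM (0.086 on the log2 scale, adjusted p = 0.585).

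Among the 35 members that were tested and not called, log2 fold changes ran from -0.36 (Mutyh) to 0.15 (Polk). The 95% confidence interval lay within 0.5 of 0 on the log2 scale for 34 of them, Mutyh being the exception, and the highest upper bound was 0.31. Of the 35, 7 had an unadjusted p under 0.05 in edgeR: Mutyh, Parp1, Parp2, Xpc, Msh6, Mlh3 and Polk. The share of all genes tested with such a p was not computed, so this count is not a result about the members as a set. Exons of another gene overlapped those of 19 members, on the opposite strand for 17, so their counts carry that uncertainty.

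Per kilobase of annotated exon, the members spanned a wide range of levels. Ddb1 was the most abundant, at 212 ± 4.39 CPM per kilobase in non-irradiated and 221 ± 5.5 in irradiated libraries, followed by Rad23b at 103 ± 3.54 and 97.9 ± 3.48. Ercc3, Polk, Msh6 and Ercc5 came next at 35.8 ± 2.11, 32.6 ± 1.84, 30.2 ± 0.655 and 29.1 ± 1.12 CPM per kilobase in non-irradiated libraries, each differing from the next by less than the sum of their SDs. In irradiated libraries Ercc5 was at 37.5 ± 1.9 CPM per kilobase, beside Ercc3 at 36.1 ± 1.53 and Polk at 36.1 ± 1.05, differences under the sum of their SDs. At the other end stood Mutyh (1.22 ± 0.115), Ung (1.05 ± 0.113), Neil3 (0.963 ± 0.113), Tdg (0.783 ± 0.154) and Neil2 (0.0361 ± 0.00826 CPM per kilobase), and among the first 4 of these each again differed from the next by less than the sum of their SDs. The coefficient of variation over non-irradiated libraries ran from 1.53% (Mlh3) to 19.7% (Tdg) among tested members, with a median of 5.39%.

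**Figure D3:**
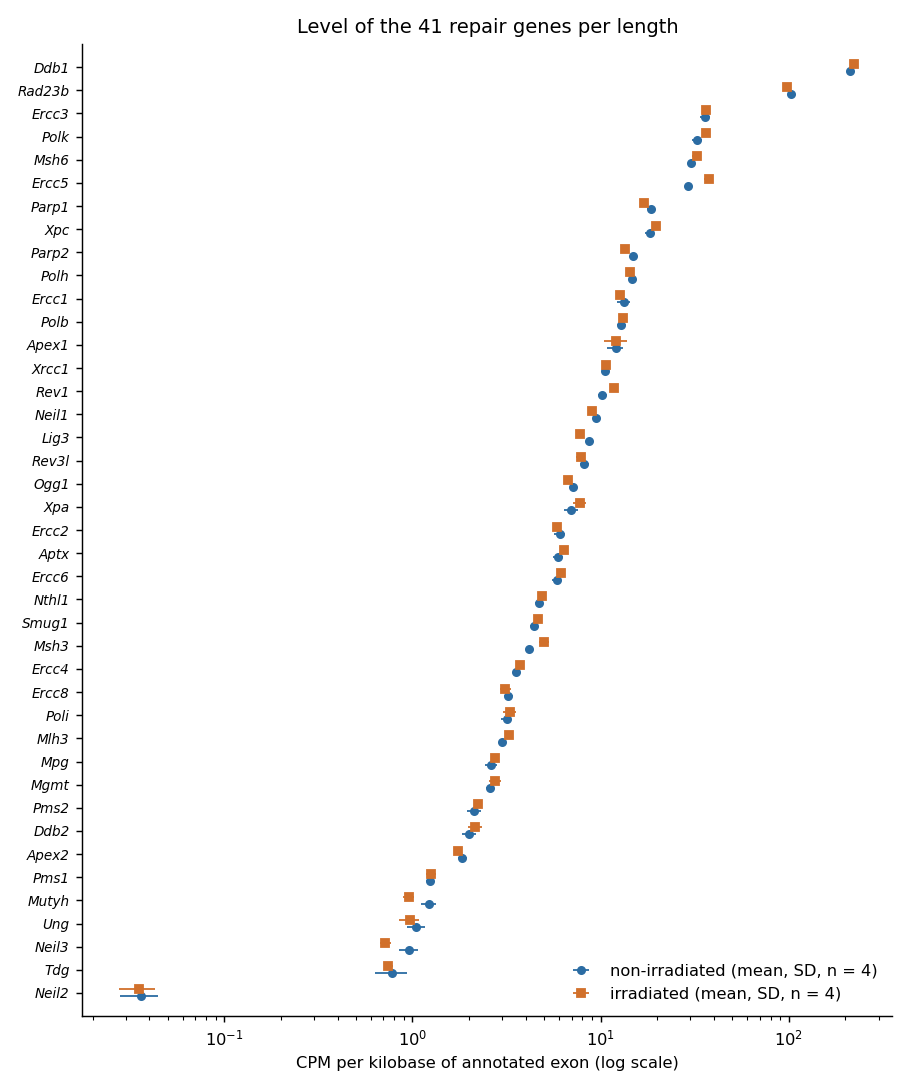
Mean CPM per kilobase of annotated exon on a log axis for the 41 members, with the SD over 4 libraries, circles for non-irradiated and squares for irradiated libraries, ordered by the non-irradiated mean. Ddb1 and Rad23b stand above all others, Neil2 lies far below, and the 2 groups nearly coincide for most genes.

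A wider list of 60 genes that serve the same pathways, also chosen with earlier results of these data known, was described in the same way. Of the 59 tested, 13 were lower and 1 higher, with a median log2 fold change of -0.053. Over all genes tested, 4.15% were lower and 2.59% higher, with a median of 0.00088. The mismatch and resynthesis list holds Exo1 and, beside it, only subunits of the clamp loader and of polymerases delta and epsilon. Of its 13 tested genes, 7 were lower and 0 higher, with a median of -0.20. The 5 mismatch members described above all lay above 0 instead, with a median of 0.10, so these falls are not a fall of mismatch repair genes in general. Pole, the catalytic subunit of polymerase epsilon, had a log2 fold change of -0.69 (edgeR adjusted p = 1.32e-05), the polymerase delta subunits Pold1 and Pold2 -0.37 (0.000635) and -0.36 (0.00114), and the clamp loader subunit Rfc4 -0.32 (0.016). Without both irradiated I and II these 4 kept their calls, with adjusted p = 0.00051 for Pole, 0.0168 for Pold1, 0.0105 for Pold2 and 0.0226 for Rfc4. Exo1, the exonuclease of mismatch repair (-0.47, 0.0161), Pole2 (-0.43, 0.0227) and Rfc2 (-0.20, 0.0242) were the other 3, named after their values were seen, and they lost their calls without both irradiated I and II (0.059, 0.143 and 0.0721). Rfc4 and Exo1 also lost theirs without irradiated IV (0.0546 and 0.0571). Pole2 lost its call in each fit without 1 library apart from those without non-irradiated II or III (up to 0.066), and Rfc2 without non-irradiated I or II or irradiated II or IV (up to 0.0819).

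In base excision, Lig1, the ligase of long-patch repair and replication, fell from 24 ± 0.531 to 17 ± 0.488 CPM (SD, n = 4; log2 fold change -0.50, edgeR adjusted p = 4.86e-05), and Pcna, the sliding clamp, from 26.1 ± 1.29 to 20.6 ± 1.45 CPM (-0.34, 0.00382). Without both irradiated I and II, Lig1 had an adjusted p = 0.00191 and Pcna 0.0493, just under the threshold. Parp3, a relative of Parp1, was the 1 gene that rose, from 154 ± 3.87 to 172 ± 4.97 CPM (0.17, 0.0129), a call lost without irradiated I (0.0518) and without both irradiated I and II (0.155). Of 19 nucleotide excision genes, 2 were lower, where 4.15% of all genes tested were lower, and this count is too small to set the list apart. The 2 were the single-strand binding subunits Rpa1 (-0.16, 0.0202) and Rpa2 (-0.23, 0.0378). Both calls were lost without both irradiated I and II (adjusted p = 0.195 and 0.235), that of Rpa1 also without non-irradiated II or irradiated I or II (up to 0.0604), and that of Rpa2 in each fit without 1 library apart from those without non-irradiated IV or irradiated III (up to 0.113). None of the 17 others, among them the TFIIH subunits Gtf2h1 to Gtf2h5 and Cdk7, was called.

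Of 13 further translesion genes, 2 were lower and 0 higher, where 4.15% of all genes tested were lower and 2.59% higher. These counts are too small to set the list apart from that background. Rad18, the ligase that marks the sliding clamp so that Rev1 and its partners can bind, fell from 45.8 ± 2.92 to 32.9 ± 0.62 CPM (SD, n = 4; log2 fold change -0.48, edgeR adjusted p = 6.04e-05), and it kept its call without both irradiated I and II (0.00245). Polq, the polymerase of microhomology-mediated end joining, had -0.58 (0.00941), a call lost without both (0.0944). The direct reversal genes Alkbh2 and Alkbh3 were not called. The dividing-cell genes moved with these falls, and their part in them was not tested.

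**Figure D4:**
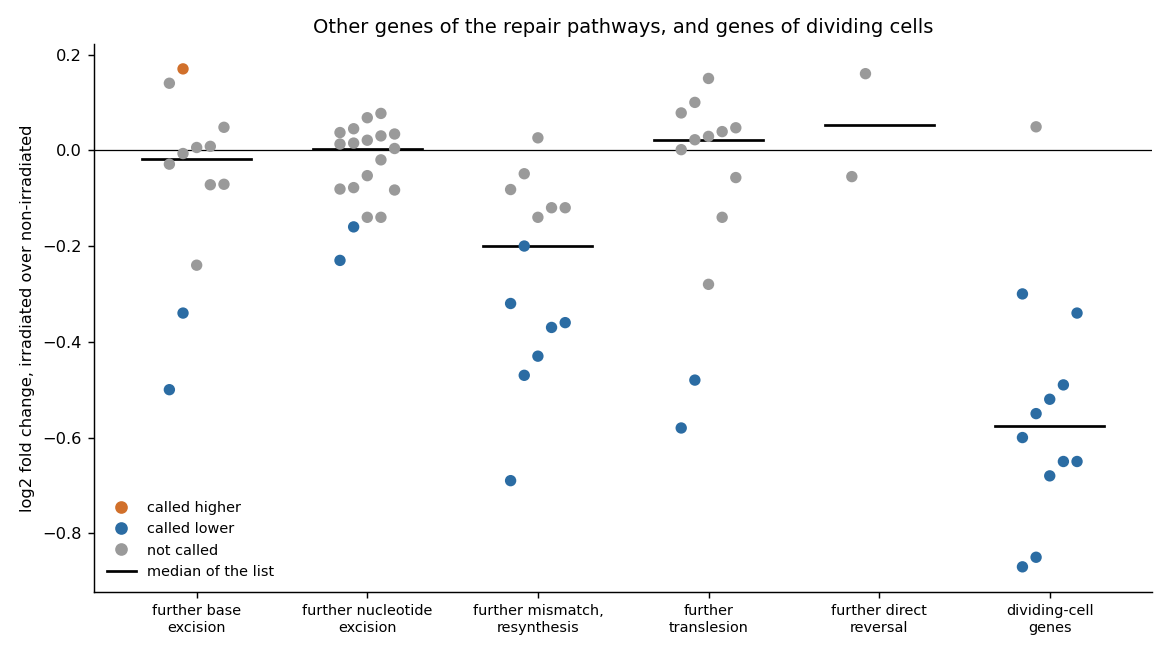
Log2 fold change, irradiated over non-irradiated, of the tested genes in 5 lists of further pathway genes and in the list of dividing-cell genes, with a point for each gene and a line for the list median. Blue points were called lower and the orange point, Parp3, higher; the mismatch and resynthesis list has a median of -0.20 and the dividing-cell list of -0.57.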

How the data were processed

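The authors deposited raw read counts per Ensembl gene, 1 file per library, without normalization. PolyA RNA was sequenced, and the submitters' processing notes name featureCounts 1.5.0-p1, STAR 2.5.2a, the mm10 build and bcl2fastq 2.20.0.422. Not given in the sources used here are the annotation, the strand setting and how multi-mapping reads were treated. Symbols and exons came from GENCODE M21 (GRCm38, the coordinates of mm10), which named 55480 identifiers, and the 93 others held 0.0004% of counts.

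Counts were fitted in edgeR 4.0.16 (R 4.3.3) with TMM factors, filterByExpr (minimum count 10, minimum total 15; 15259 genes kept) and the quasi-likelihood test with group as the sole term, adjusted by Benjamini-Hochberg over all genes tested, threshold 0.05. SEs came from the fold change and F statistic. The pipeline was tested on simulated data. Members and lists were chosen with earlier results of these data known. All 41 members are named, with library values for those called or called under an alternative. Of other pathway genes, the called ones with the 4 smallest adjusted p per list are named, and any others were chosen after their values were seen. Alternatives were DESeq2 1.42.0, limma-voom (limma 3.58.1), upper-quartile or RLE factors, 2 other filters, a threshold of 0.01, a replicate block, GC and length offsets (loess, span 0.5), and left-out libraries.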

Additional observations from a re-analysis of the deposited data

Results flagged for a closer look

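Each member was screened for a library far from the other 3 of its group (gap to the nearest library, over the group's range, above Dixon's 95% critical value for 4). Of 82 groups, 4 held one, where chance gives about 1 in 20. Neil3 was at 4.38 CPM in irradiated IV against 3.82 to 3.9 CPM in the other irradiated libraries. Smug1 was at 25.2 CPM in non-irradiated IV against 27.7 to 28.2 CPM. Xpc was at 108 CPM in non-irradiated III against 96.3 to 97.7 CPM. Ercc2 was at 22.6 CPM in non-irradiated IV against 26.1 to 26.2 CPM.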

How the results depend on the processing

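Of 720 values of the members under 18 alternatives, 682 kept their direction and their side of the threshold, 15 lost and 8 gained a call, and 15 changed sign. The members higher numbered 2 to 4 throughout. The members lower numbered 3 with DESeq2 or the replicate block and 1 without the low-count filter. They numbered 0 without both irradiated I and II, 0 at a threshold of 0.01, and 0 to 2 when 1 library was left out (leave-one-out). Over all genes, 648 were higher without the filter, 539 with DESeq2 and 140 at 0.01, and 221 to 402 in the leave-one-out fits. Lower genes numbered 798 without the filter, 775 with DESeq2, 295 without both irradiated I and II, 296 at 0.01 and 415 to 611 in the leave-one-out fits. A stricter threshold can only lower these counts, and why they differed in the other settings was not tested. Fits that leave out libraries have fewer samples. The fit without both irradiated I and II also lacks the libraries with high mitochondrial rRNA.

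The sign changes all concerned genes that were not called and lay near 0. Apex1 was at -0.0032 with limma-voom, -0.0014 with the replicate block, -0.024 with GC and length trends removed and -0.086 to 0.076 in the leave-one-out fits, below 0 in 5. Pms1 was at -0.053 without both irradiated I and II and at -0.016 to 0.055 in the leave-one-out fits. Ercc3 ranged from -0.019 to 0.041 in such fits, and Tdg from -0.19 to 0.051. Intervals for genes at a few CPM, such as Mutyh and Neil3, are limited by their depth.

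Deviations from the group means correlated over genes at r = 0.025 (I), -0.033 (II), 0.275 (III) and 0.147 (IV) for same-numbered replicates, and at -0.226 to 0.148 for other pairs. Since r was not over 0.1 in every pair, the numerals were not used for pairing. With the replicate block, 550 genes were higher and 802 lower, 4 members were higher and 3 lower, and Polk (adjusted p = 0.0355) and Parp1 (0.0462) gained a call. Without an established pairing this fit is a description.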
